A study of Yarrowia lipolytica with 9 samples.

Results

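A set of 142 transcripts was examined whose level in the engineered Yarrowia lipolytica strain yl_12 lay apart from the level in the strains yl_11 and yl_10. They were selected from 6366 features with read counts, and 34 of them were higher and 108 lower in yl_12. The 3 strains were each sequenced in 3 libraries of total RNA, and their labels place all 3 in the background of strain ATCC 201249 and state that each was transformed with heterologous genes. All cultures were grown in flasks for 72 h at 28 °C with shaking at 250 rpm, and the cells were pelleted and frozen before RNA extraction. The series is described as a comparison of strains that form different amounts of lycopene. The labels give neither the amount of lycopene nor the introduced genes for a strain, name no control strain, and do not say whether a strain is 1 clone or whether its libraries came from separate cultures.

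Y. lipolytica is an oleaginous yeast, which stores surplus acetyl-CoA as triacylglycerol in lipid bodies. Lycopene is a red carotenoid built from isoprenoid units, which the mevalonate pathway makes from acetyl-CoA and which also feed the synthesis of sterols. The yeast has no carotenoid pathway of its own, so lycopene producers carry introduced genes for the steps that turn geranylgeranyl diphosphate into phytoene and phytoene into lycopene. The files and the reference table give no product names for the transcripts described here, so they are named by locus tag, or by RefSeq transcript where no tag was found, and no role is assigned to them. Of the 142 transcripts, 135 had a locus tag and 7 had none.

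The set was chosen by its own values. The rule considered the 4447 RefSeq transcripts that were longer than 300 and shorter than 4000 bases and had a mean of 10 to below 1000 counts scaled to library total (CPM) over the 9 libraries. On a log2 CPM scale with 0.5 counts added to each count, the yl_11 and yl_10 means had to lie within 0.2 of each other, which 3732 transcripts met. The yl_12 mean had to differ from both by at least 0.3 in the same direction, which left 169, and all 3 yl_12 libraries had to lie beyond the other 6, which left 142 (3.19% of the 4447). This last condition was met by 208 transcripts above (4.68% of 4447) and by 633 below (14.2%) when it was applied to all 4447. Because the rule used all 3 contrasts between the strains, the differences below are descriptions of how the set was formed and carry no test.

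Library totals lay between 7035777 and 16424183 counts. Within the strains, yl_12 replicate 3, yl_11 replicate 1 and yl_10 replicate 3 stood apart from the remaining libraries, and these were picked from their own values in earlier work on these data. Across 5052 features, the deviations of these 3 libraries from their strain means correlated positively with each other (r from 0.35 to 0.64), and so did those of the other 6 across strains (r from 0.17 to 0.37). The deviations of 1 of the 3 and 1 of the 6 in another strain correlated negatively in all 12 pairs (r from -0.51 to -0.21). Deviations within a strain sum to 0, so these r are not independent of each other. In the fit of edgeR over 6147 features, 14.8% were called for yl_12 against yl_10 at an adjusted p below 0.05, and 7.04% for yl_12 against yl_11. For yl_11 against yl_10 the share called was 4.16%.

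Together the 142 transcripts took 1.98% to 1.99% of the counts in the yl_12 libraries, 2.23% to 2.25% in the yl_11 libraries and 2.17% to 2.30% in the yl_10 libraries. The summed level of the 34 higher transcripts was 7578, 7689 and 7167 CPM in yl_12, against 5127 to 5566 CPM in yl_11 and 4679 to 5441 CPM in yl_10. The summed level of the 108 lower transcripts was 12219, 12135 and 12718 CPM in yl_12, against 16918 to 17191 CPM in yl_11 and 16984 to 17657 CPM in yl_10. Neither sum overlapped between yl_12 and the other strains, which the choice of the transcripts fixes. Most members stood only a little beyond the limit. The smaller of the 2 differences from yl_11 and yl_10, used here as a score, had a median of 0.40 on the log2 scale in both directions. It was below 0.5 in 26 of the 34 higher and in 83 of the 108 lower transcripts, and it reached 1 in 2 of each.

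**Figure D1:**
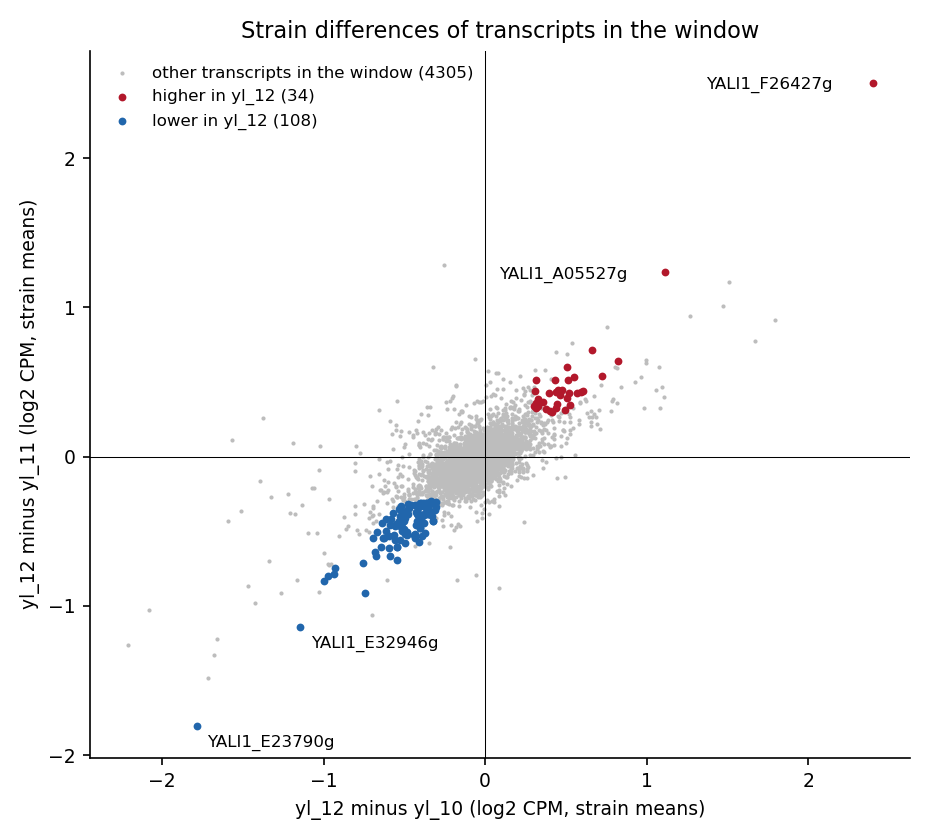
Log2 difference of yl_12 and yl_11 (vertical axis) against that of yl_12 and yl_10 (horizontal axis) for the 4447 transcripts considered by the rule, with the 34 higher and 108 lower members coloured and the others grey. YALI1_F26427g lies far above the other higher members at 2.40 and 2.50, and YALI1_E23790g far below the other lower members at -1.79 and -1.80.

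YALI1_F26427g (XM_505640.1) stood furthest apart of all 142. Its level was 191, 187 and 219 CPM in the 3 yl_12 libraries, against 40.9, 31.9 and 32.7 CPM in the yl_11 libraries and 37.7, 34.8 and 40.5 CPM in the yl_10 libraries. The lowest yl_12 library lay 2.19 log2 units above the highest of the other 6, and the 3 yl_12 libraries were alike. Its mean was 5.47-fold higher in yl_12 than in the other 6 libraries. Per length, its level was 109.5 ± 9.68 FPKM (fragments scaled to length and library total; SD, n = 3) in yl_12, against 19.4 ± 2.72 FPKM in yl_11 and 20.7 ± 1.57 FPKM in yl_10. The median over the 4447 transcripts was 51.9 FPKM, so this transcript lay above it in yl_12 and below it in the other strains. The lengths behind the FPKM values are coding lengths.

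YALI1_A05527g came next, with 167, 173 and 127 CPM in the yl_12 libraries, against 59.7, 68.7 and 68.5 CPM in the yl_11 libraries and 76.7, 70.3 and 66.5 CPM in the yl_10 libraries. All 3 yl_12 libraries were above the rest, and yl_12 replicate 3 was the lowest of them. The mean was 2.26-fold higher in yl_12 than in the other libraries. Among the 3 libraries that stand apart the log2 difference was 1.01, and among the other 6 it was 1.26.

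The remaining higher transcripts differed by at most 1.66-fold. YALI1_F26367g, which lies close to YALI1_F26427g in the order of genes, had 352, 369 and 374 CPM in yl_12, against 202, 235 and 233 CPM in yl_11 and 227, 219 and 246 CPM in yl_10. Its groups were tight and well separated, and its mean was 1.61-fold higher in yl_12. YALI1_D10367g had 804, 815 and 593 CPM in yl_12, against 402, 507 and 507 CPM in yl_11 and 442, 482 and 330 CPM in yl_10. Here the spread within the strains was wide, because yl_12 replicate 3, yl_11 replicate 1 and yl_10 replicate 3 were each the lowest library of their strain. The mean of YALI1_D10367g was 1.66-fold higher in yl_12, and its pooled SD of 0.25 on the log2 scale was the largest among the 142.

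YALI1_F11481g had the same library lowest in each strain, with 432, 452 and 398 CPM in yl_12, against 262, 305 and 314 CPM in yl_11 and 279.9, 278 and 223 CPM in yl_10. The other 7 of the 12 transcripts with the highest scores differed by 1.36-fold to 1.47-fold. YALI1_B04138g averaged 100.3 ± 8.96 CPM in yl_12, against 69.7 ± 10.8 CPM in yl_11 and 68.4 ± 3.42 CPM in yl_10 (SD, n = 3 each). YALI1_B12781g averaged 32.1 ± 1.02 CPM in yl_12, against 21.2 ± 1.62 CPM in yl_11 and 22.7 ± 2.43 CPM in yl_10. YALI1_F35329g, a transcript of 3897 coding bases, averaged 345.5 ± 36.1 CPM in yl_12, against 241 ± 15.6 CPM in yl_11 and 255 ± 6.03 CPM in yl_10. In this group of 7, XM_504869.1 and YALI1_C13261g had unequal differences in the 2 kinds of library. XM_504869.1 differed by 0.79 among the 3 libraries that stand apart and by 0.38 among the other 6, and YALI1_C13261g by 0.88 and 0.34. YALI1_F26793g and YALI1_A14228g were close to the lower limit of level, at 17.5 ± 1.62 CPM and 13.9 ± 1.87 CPM in yl_12. Both averaged between 10.1 and 12.8 CPM in the other strains.

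**Figure D2:**
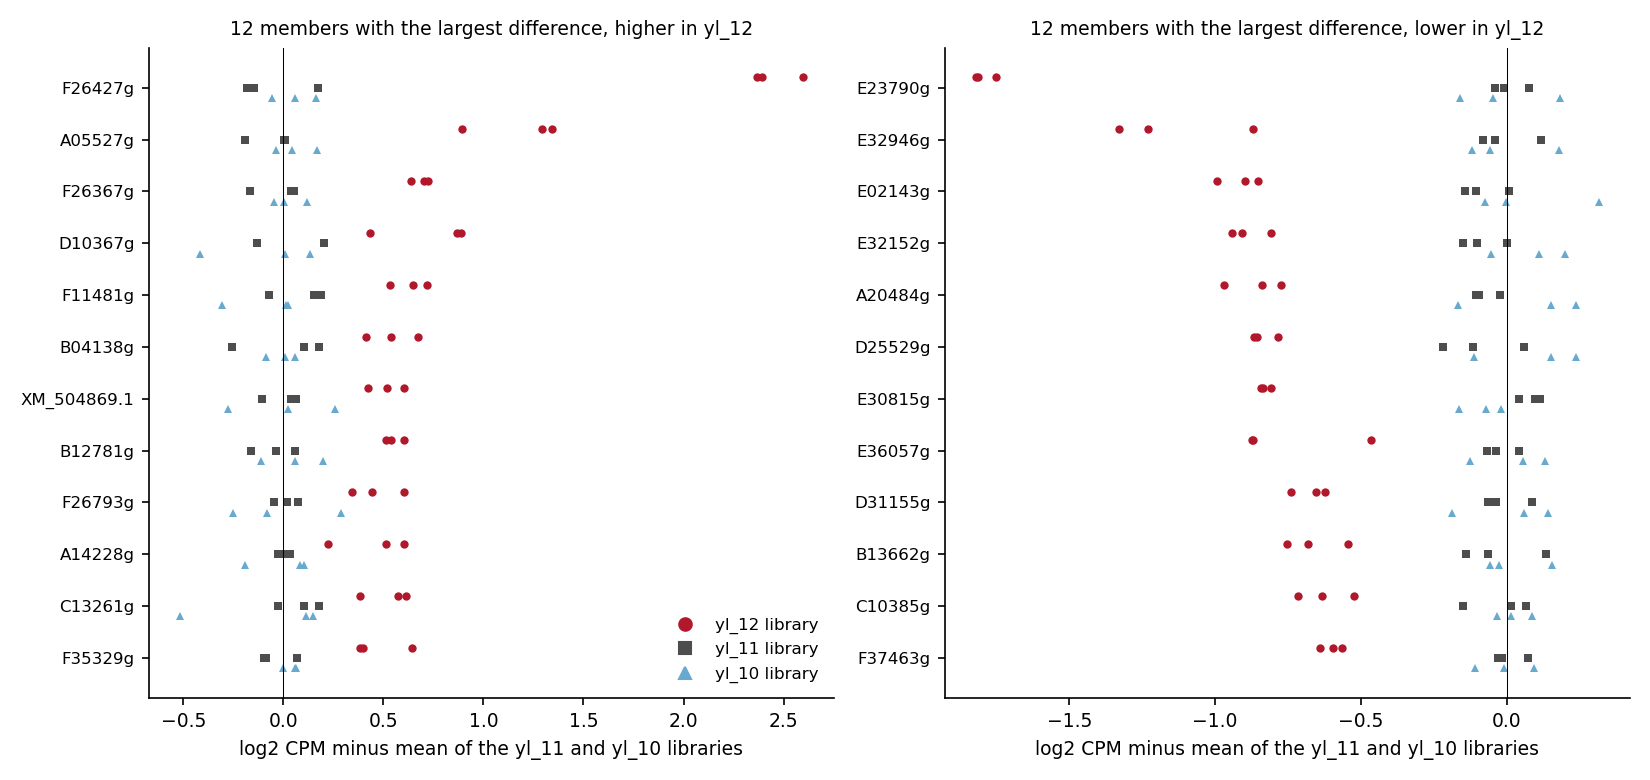
Log2 CPM of each library minus the mean of the 6 yl_11 and yl_10 libraries (horizontal axis) for the 12 higher (left) and 12 lower (right) transcripts with the highest scores, with 1 point per library and the prefix YALI1_ left out of the tags. All yl_12 points lie outside the range of the other libraries, which the rule requires, and the gap is widest for YALI1_F26427g (2.19) and YALI1_E23790g (1.59).

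Among the 34 higher transcripts, 8 averaged over 300 CPM across the 9 libraries. Besides YALI1_D10367g and YALI1_F11481g these were YALI1_E37234g, YALI1_F25309g, YALI1_B30293g, YALI1_F00654g, YALI1_E38810g and YALI1_E04143g, which differed by 1.26-fold to 1.35-fold. YALI1_E04143g had 954, 942 and 1013 CPM in yl_12, against 823.5, 785 and 750.1 CPM in yl_11 and 723, 739 and 716 CPM in yl_10. YALI1_E38810g had the narrowest gap of the 8, with 889.5, 912 and 727 CPM in yl_12, against 626, 687 and 713 CPM in yl_11 and 639.5, 635 and 522.5 CPM in yl_10. Its yl_12 replicate 3 was 0.03 log2 units above yl_11 replicate 3, and it met the rule in 4 of the 9 repeats with 1 library left out. YALI1_E37234g was steadier, with 421 ± 27.1 CPM in yl_12, against 311 ± 7.58 CPM in yl_11 and 311 ± 8.06 CPM in yl_10 (SD, n = 3 each).

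YALI1_E23790g (XM_504164.1) led the 108 lower transcripts. It had 10.1, 10.02 and 10.5 CPM in the yl_12 libraries, against 37.4, 35.2 and 34.5 CPM in the yl_11 libraries and 40.2, 34.3 and 31.7 CPM in the yl_10 libraries. The yl_12 values were nearly equal and lay 1.59 log2 units below the lowest of the other 6. Its mean was 3.47-fold lower in yl_12. Per length it stood at 9.63 ± 0.257 FPKM in yl_12, against 33.7 ± 1.43 FPKM in yl_11 and 33.4 ± 4.12 FPKM in yl_10 (SD, n = 3 each).

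YALI1_E32946g had 116, 108 and 149 CPM in yl_12, against 294.5, 264 and 257 CPM in yl_11 and 261, 250.2 and 307 CPM in yl_10. The groups did not overlap, yl_12 replicate 3 was the nearest of its strain to the others, and the mean was 2.21-fold lower in yl_12. YALI1_E02143g had 34.5, 36.9 and 38.1 CPM in yl_12, against 62.3, 64.0 and 69.2 CPM in yl_11 and 68.7, 65.4 and 85.6 CPM in yl_10. Its mean was 1.89-fold lower, and yl_10 replicate 3 was the highest of all 9 libraries. YALI1_E32152g averaged 29.3 ± 1.42 CPM in yl_12, against 51.0 ± 2.75 CPM in yl_11 and 57.5 ± 5.11 CPM in yl_10, which made it 1.85-fold lower.

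Farther down the order, YALI1_A20484g averaged 151 ± 10.2 CPM in yl_12, against 259.9 ± 8.31 CPM in yl_11 and 290.0 ± 41.2 CPM in yl_10 (SD, n = 3 each). YALI1_D25529g averaged 83.8 ± 2.67 CPM in yl_12, against 141 ± 13.9 CPM in yl_11 and 160.2 ± 19.5 CPM in yl_10. YALI1_E36057g averaged 30.5 ± 5.18 CPM in yl_12, against 49.7 ± 1.95 CPM in yl_11 and 51.3 ± 4.63 CPM in yl_10. For YALI1_A20484g and YALI1_E36057g the difference was smaller among the 3 libraries that stand apart, at -0.64 and -0.42, than among the other 6, at -0.97 and -0.89. The other 5 of the 12 lower transcripts with the highest scores were YALI1_E30815g, YALI1_D31155g, YALI1_B13662g, YALI1_C10385g and YALI1_F37463g, and they differed by 1.52-fold to 1.78-fold.

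YALI1_E30815g was also the transcript with the largest score among the 14 lower members that averaged over 300 CPM. It had 493, 482 and 484 CPM in yl_12, against 888, 934.5 and 922 CPM in yl_11 and 851, 821 and 771 CPM in yl_10. Its yl_12 libraries differed by little, and its yl_11 libraries were all above its yl_10 libraries. YALI1_D05474g had the smallest pooled SD of the 142, at 0.01 on the log2 scale. It had 273, 276 and 272 CPM in yl_12, against 380.1, 380.2 and 376 CPM in yl_11 and 395, 387 and 397 CPM in yl_10. A difference of 1.41-fold was many times this spread. The transcript was singled out for the smallest of 142 spreads, so nothing more is read from that ratio.

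Per length, YALI1_A04006g and YALI1_E26229g were the most abundant of these 14. YALI1_A04006g averaged 1008 ± 135 FPKM in yl_12, against 1451 ± 183 FPKM in yl_11 and 1483 ± 46.5 FPKM in yl_10 (SD, n = 3 each). YALI1_E26229g averaged 1046 ± 125 FPKM in yl_12, against 1364 ± 45.7 FPKM in yl_11 and 1355 ± 41.6 FPKM in yl_10. In both, yl_12 replicate 3 was the highest library of its strain, at 737 and 713 CPM. The other 11 were YALI1_C16431g, YALI1_B02345g, YALI1_E20923g, XM_506075.1, YALI1_E19172g, YALI1_E18441g, YALI1_B01317g, YALI1_E41421g, YALI1_F13550g, YALI1_F36178g and YALI1_D05474g, with differences of 1.24-fold to 1.42-fold. YALI1_E19172g and YALI1_E18441g had small spreads, with a pooled SD of 0.03 and 0.04 on the log2 scale. YALI1_B01317g had a gap of 0.08 log2 units between yl_12 replicate 3 and yl_11 replicate 3.

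The transcripts at the limit of 0.3 show how close the selected and the unselected were. Just inside were XM_501803.1 and YALI1_E04143g among the higher, both with a score of 0.30, and YALI1_F36178g and YALI1_F30116g among the lower, both also at 0.30. Just outside were YALI1_D05244g, with a score of 0.29998, and YALI1_F07847g, with 0.295, among the higher. Just outside among the lower were YALI1_D12091g and YALI1_B20043g, both with 0.299. YALI1_D05244g averaged 186 CPM in yl_12, against 138 CPM in yl_11 and 151 CPM in yl_10, and is not counted here although it misses the limit only in the fifth decimal.

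Level and length were not used beyond the limits of the rule. The 34 higher transcripts had a median level of 74.9 FPKM and the 108 lower ones of 54.8 FPKM, against 51.9 FPKM for all 4447. The medians of coding length were 1363.5 bases for the higher and 1123.5 bases for the lower transcripts, against 1305 bases for all 4447. The spread between libraries differed between the directions. The pooled SD on the log2 scale had a median of 0.15 for the higher transcripts, 0.09 for the lower transcripts and 0.09 for all 4447. The gap between yl_12 and the nearest other library had a median of 0.14 for the higher and 0.21 for the lower transcripts. Spread and gap are partly fixed by the rule, which required every yl_12 library to lie beyond the other strains. Level is touched by it too, because the mean over the 9 libraries includes the yl_12 values. Nothing is therefore read from the contrasts of spread, gap or level between the directions.

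Of the 142 transcripts, all of which passed the expression filter, edgeR's quasi-likelihood test called 130 for yl_12 against yl_10 (33 of 34 higher, 97 of 108 lower). The background was 7.00% called higher and 7.81% called lower. For yl_12 against yl_11 it called 117 (26 of 34 higher, 91 of 108 lower), with a background of 3.20% and 3.84%. For yl_11 against yl_10 it called 2 of the 142, with a background of 4.16%, of which 1.68% were higher and 2.49% lower. Nothing is read from these shares, because the rule selected on the same contrasts. They show that 1 higher and 10 lower members met the rule without a call in either comparison of yl_12.

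For the 108 lower transcripts the libraries that stand apart lay much as in the background, and for the 34 higher ones less so. In yl_12 the library nearest to the other strains was replicate 3 for 19 of the 34 higher (55.9%) and 53 of the 108 lower transcripts (49.1%). The background was 372 of the 841 transcripts (44.2%) in which yl_12 did not overlap the rest. All 3 libraries that stand apart were below the other 2 of their strain in 17 of the 34 higher (50.0%) and 26 of the 108 lower transcripts (24.1%), against 1236 of all 4447 (27.8%). All 3 were above them in 1 of the 34 (2.94%) and 15 of the 108 (13.9%), against 552 of the 4447 (12.4%). The median difference of yl_12 was 0.55 among the 3 libraries that stand apart and 0.40 among the other 6 for the higher transcripts. For the lower transcripts these medians were -0.39 and -0.48. The part that these libraries play in the differences was not tested. Without them the rule chose 60 higher and 132 lower transcripts, of which 27 and 85 were among the 142.

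The transcripts were also chosen with 8 libraries, and the yl_12 library that was left out was then read. This reading was added after the data had been seen. Without yl_12 replicate 1, 33 higher transcripts were chosen, and in 32 of them (97.0%) replicate 1 lay above all 6 libraries of the other strains. Among all 4447 transcripts replicate 1 lay above those 6 in 15.3%. Without replicate 2, 30 of 32 higher transcripts (93.8%) had replicate 2 above the 6, against 15.8% of all 4447.

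Replicate 3 had been picked as standing apart from its own values, so nothing is read from its contrast with the other 2. Without replicate 3, 71 higher transcripts were chosen, and replicate 3 lay above all 6 in 41 of them (57.7%), against 12.3% of all 4447. The median log2 difference in these 71 was 0.20 in replicate 3 and 0.44 in the libraries that chose them. For the lower transcripts the shares were closer together. Replicate 1 lay below all 6 in 101 of 108 (93.5%, against 29.1% of all 4447), replicate 2 in 107 of 111 (96.4%, against 29.5%) and replicate 3 in 106 of 127 (83.5%, against 33.7%). The 6 libraries of yl_11 and yl_10 served both to choose and to read, so an excess over all 4447 transcripts is partly fixed by the choice, and nothing is read from it.

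**Figure D3:**
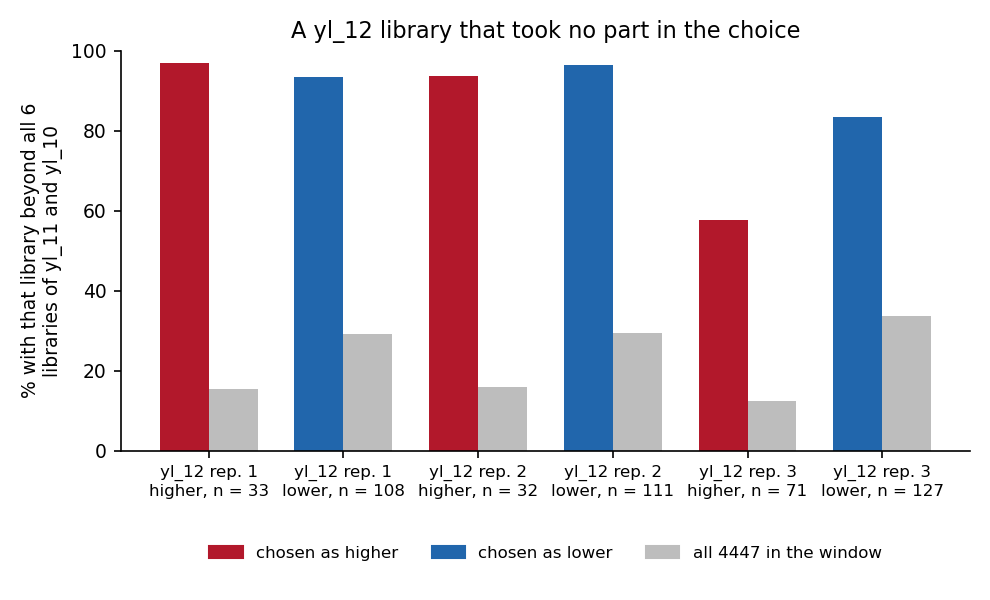
Percent of transcripts in which a yl_12 library lay beyond all 6 libraries of the other strains, for transcripts chosen without that library and for all 4447, by library and direction. Among the chosen transcripts replicate 3, picked earlier from its own values, has the lowest shares, 57.7% for higher and 83.5% for lower. The choice itself partly fixes the excess over all 4447 because the same 6 libraries served both steps.

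The balance between the directions depended on the scaling. With library totals the median difference of yl_12 from the other libraries over all 4447 transcripts was -0.05 on the log2 scale, and 34 higher and 108 lower transcripts met the rule (23.9% higher). With TMM factors, which scale by the bulk of the genes, that median was -0.003, and 53 higher and 80 lower transcripts met it (39.8% higher). Of the 142 transcripts, 110 were also chosen with TMM factors, 31 higher and 79 lower. With the size factors of DESeq2 the counts were 55 higher and 76 lower (42.0% higher). All 12 of the leading lower transcripts and 10 of the 12 leading higher ones met the rule with TMM factors. The exceptions were YALI1_D10367g and YALI1_F11481g, whose difference between yl_11 and yl_10 then came to 0.21 and 0.20, just past the limit of 0.2. The abundant higher transcript YALI1_E38810g also missed that limit with TMM factors, at 0.200006. Among the abundant lower transcripts YALI1_E18441g, YALI1_B01317g, YALI1_E41421g, YALI1_F13550g and YALI1_F36178g did not meet the rule with TMM factors, with scores of 0.26 to 0.29.

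**Figure D4:**
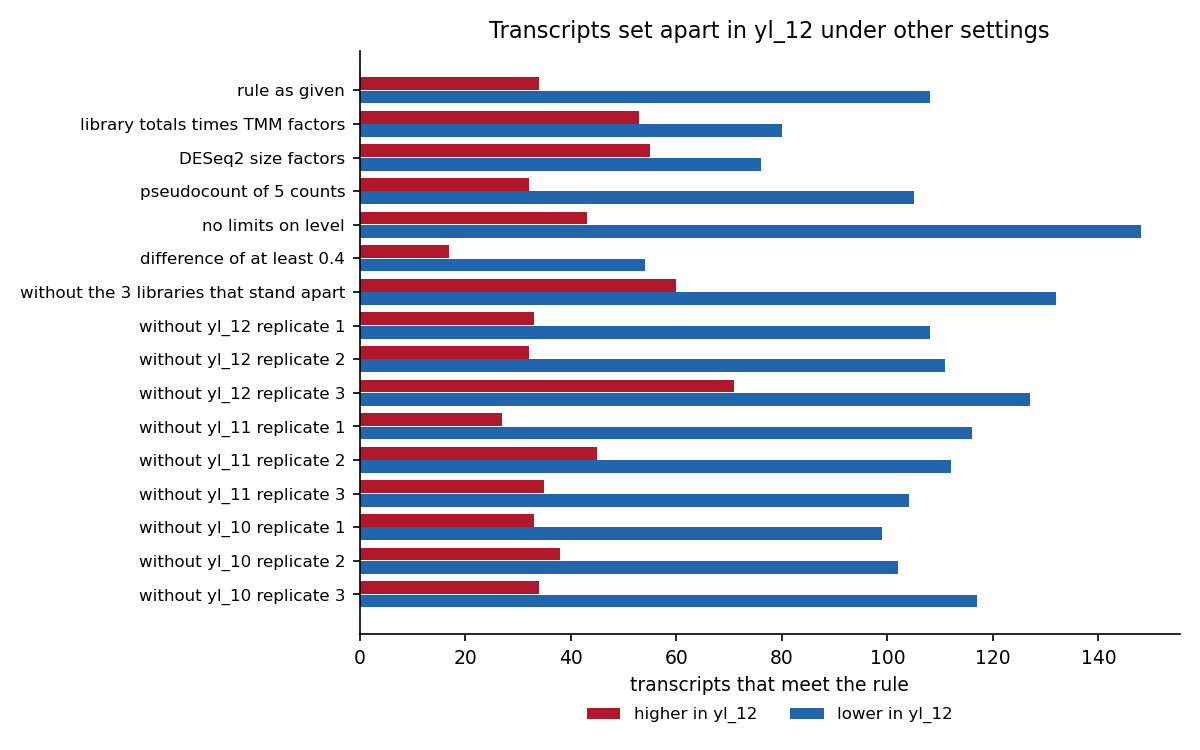
Number of transcripts higher and lower in yl_12 that met the rule under each scaling, limit and omission of libraries. Lower transcripts outnumber higher ones under every setting shown, by 108 to 34 with library totals, 80 to 53 with TMM factors and 76 to 55 with DESeq2 size factors.

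The order of genes was taken from the RefSeq table of assembly ASM176148v1, which may not be the assembly of the authors, and 135 of the 142 could be placed in it. Of these, 14 (10.4%) were next to another member among the 5430 genes that matched a transcript, in 6 runs. Of the other 4083 transcripts in the window that could be placed, 194 (4.75%) were next to a member, and the difference between these shares was not tested. The longest run held 4 lower transcripts near the end of chromosome E, YALI1_E41393g, YALI1_E41399g, YALI1_E41421g and YALI1_E41436g, with no gene between them and 11 protein-coding genes after them. YALI1_E41421g had 397, 409 and 439 CPM in yl_12, against 555, 522 and 518 CPM in yl_11 and 489.9, 504 and 550.5 CPM in yl_10. Its neighbour YALI1_E41393g had 183, 171 and 203 CPM in yl_12, against 249, 253 and 241 CPM in yl_11 and 243, 233 and 256 CPM in yl_10. The 4 transcripts had like differences, from -0.31 to -0.42 against yl_10 and from -0.34 to -0.42 against yl_11. YALI1_E41436g averaged 37.6 ± 1.72 CPM in yl_12, against 47.6 ± 5.03 CPM in yl_11 and 48.4 ± 0.797 CPM in yl_10 (SD, n = 3 each). With TMM factors YALI1_E41421g did not meet the rule, at a score of 0.26, which breaks the run, while the other 3 met it with scores of 0.31 to 0.35. The run did not extend to either side, since YALI1_E41367g differed by 0.02 from yl_10 and by -0.28 from yl_11, and YALI1_E41514g was below 1 CPM. YALI1_E41610g, a few genes farther on, was one of the 34 higher transcripts.

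The other 3 runs in 1 direction were pairs of lower transcripts, YALI1_E26223g with YALI1_E26229g, YALI1_E32152g with YALI1_E32180g, and YALI1_F33143g with YALI1_F33189g. In the pair YALI1_E32152g and YALI1_E32180g the differences were unequal, at 1.85-fold and 1.29-fold lower. With TMM factors YALI1_E32180g (score 0.27) and YALI1_F33143g (score 0.298) did not meet the rule, so of these 3 pairs only YALI1_E26223g with YALI1_E26229g was kept. In 2 further pairs the neighbours went in opposite directions. YALI1_E37118g was lower, with 32.0, 32.7 and 32.5 CPM in yl_12, against 42.6, 39.4 and 41.1 CPM in yl_11 and 43.0, 40.9 and 45.2 CPM in yl_10, while YALI1_E37234g was higher, and 3 genes that matched no transcript lie between them. YALI1_C19872g was 1.36-fold lower and YALI1_C19898g 1.36-fold higher, with 1 unmatched gene between them. Whether counting used the strand of the reads is not given in the sources used here, so reads of overlapping neighbours cannot be told apart. Of the transcripts in the window, 38 of 985 on chromosome E were members (3.86%), and on the other chromosomes the share was 2.56% to 3.41%.

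Around YALI1_F26427g several genes were also unequal between the strains. On one side YALI1_F26399g differed by 0.37 from yl_10 and 0.58 from yl_11, and it was no member because yl_11 and yl_10 differed by -0.21. Beyond it lay the member YALI1_F26367g, followed by YALI1_F26313g with 0.26 and 0.29. On the other side YALI1_F26519g differed by 0.78 from yl_10 and 0.31 from yl_11, and the next gene, YALI1_F26574g, was lower by contrast, at -1.22 and -0.25. YALI1_F26574g averaged 222 CPM in yl_12, against 262 CPM in yl_11 and 517 CPM in yl_10. Of the genes on either side of YALI1_E23790g, YALI1_E23749g differed by -0.04 from yl_10 and -0.08 from yl_11, and YALI1_E23809g by -0.01 and 0.15. Farther away, YALI1_E23736g, which averaged 4.22 CPM over the 9 libraries, differed by -0.45 and -0.33, and YALI1_E23854g by 0.50 and 0.09. These surroundings were not compared by a test.

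**Figure D5:**
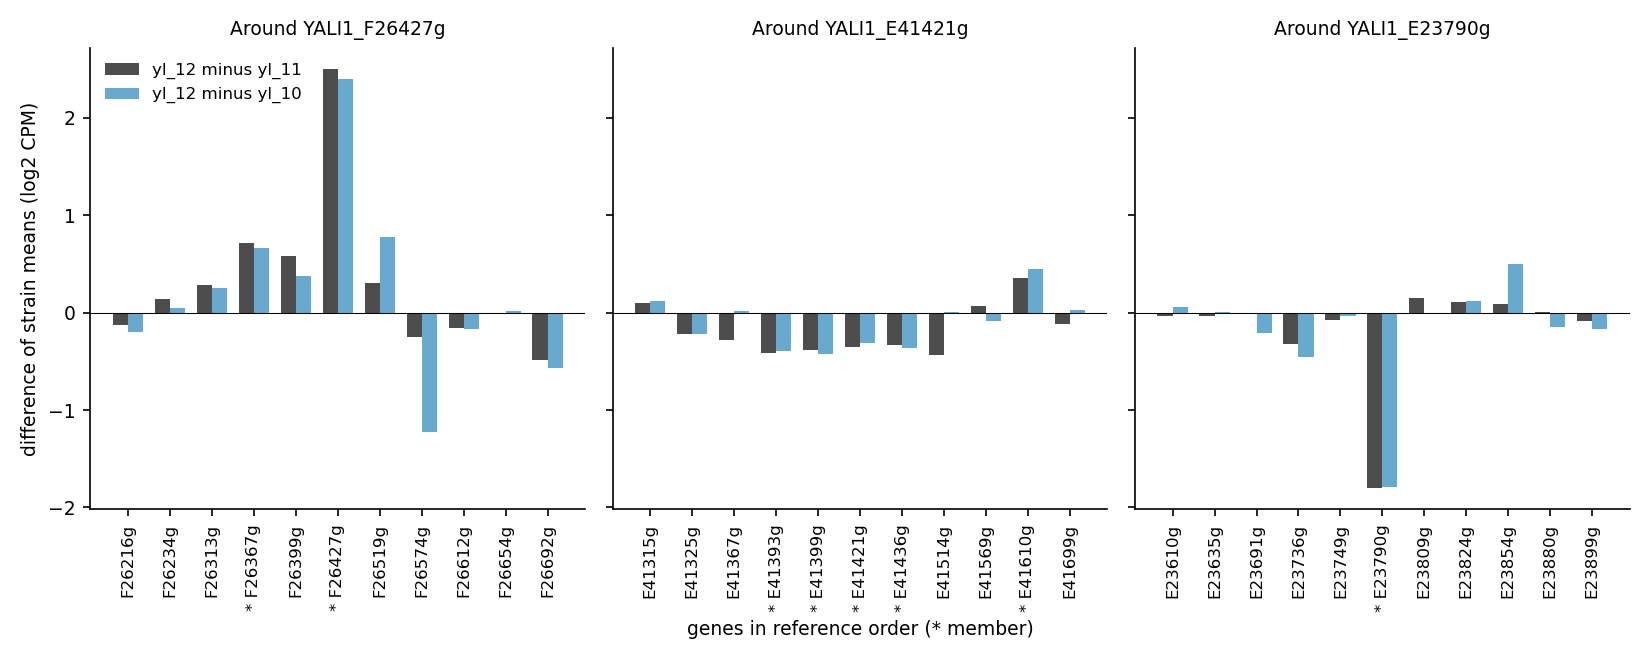
Difference of strain means on the log2 CPM scale, yl_12 minus yl_11 and yl_12 minus yl_10, for YALI1_F26427g, YALI1_E41421g and YALI1_E23790g and the 5 matched genes on each side of them in the order of genes, with an asterisk for members. The 4 adjacent lower members around YALI1_E41421g lie between -0.31 and -0.42, and the genes adjacent to YALI1_E23790g between -0.08 and 0.15.

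The same pattern was found in 67 features outside the limits on length, level or kind. They come from the 6366 features without the 4447 inside the limits, where 142 (3.19%) had the pattern. Whether the pattern is more or less frequent outside the limits than inside is not read from the 67. Of these, 8 averaged 1000 CPM or more, 2 higher and 6 lower. YALI1_F02132g had 1932, 1897 and 2211 CPM in yl_12, against 4034, 3921 and 3813 CPM in yl_11 and 3750.1, 3599 and 3965 CPM in yl_10. XM_503410.1 had 789, 772 and 1042 CPM in yl_12, against 1594, 1637 and 1712 CPM in yl_11 and 1828, 1710.2 and 1746 CPM in yl_10. Their scores were 0.91 and 0.94 without overlap between the groups, and 2 of the 108 lower members had a higher score. YALI1_C11862g averaged 1679 ± 166 CPM in yl_12, against 2709.5 ± 37.1 CPM in yl_11 and 2850 ± 139.7 CPM in yl_10 (SD, n = 3 each). YALI1_B18572g averaged 1130.2 ± 48.1 CPM in yl_12, against 1838 ± 44.5 CPM in yl_11 and 1897 ± 135 CPM in yl_10. YALI1_F31215g and YALI1_D05343g were also lower, by 0.39 to 0.49 and by 0.32 to 0.47 on the log2 scale. The 2 higher ones were YALI1_E17258g, with 2461 ± 188 CPM in yl_12, against 1937 ± 64.2 CPM in yl_11 and 1918 ± 101 CPM in yl_10, and YALI1_D16370g, which differed by 0.31 to 0.38.

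The same rule was applied with each of the other strains as the one set apart. It chose 22 transcripts for yl_11, 12 higher and 10 lower, and 87 for yl_10, 71 higher and 16 lower. Scores of at least 0.5 were reached by 33 transcripts for yl_12, by 4 for yl_11 and by 22 for yl_10, and scores of at least 1 by 4, 0 and 4. With library totals, the share of higher transcripts was 23.9% for yl_12, 54.5% for yl_11 and 81.6% for yl_10. For yl_12 it was 39.8% with TMM factors and 42.0% with DESeq2 size factors. These scalings were not applied for yl_11 and yl_10. These counts share libraries with each other and were not tested against each other.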

How the data were processed

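Deposited by the authors were read counts, as unnormalised whole numbers per feature, and FPKM values, scaled to length and library size. HTSeq 0.6.1 and DESeq 1.18.0 are named, without a role, in the submitters' processing notes. Not given in the sources used here are the aligner, genome build, annotation and use of strand, so reads of overlapping, antisense or near-identical genes may have been split or lost. The deposited FPKM values gave the lengths. Transcripts were matched without version to the RefSeq table of assembly ASM176148v1, which gave a locus tag for 5430 of 5959 and the order of genes. Its coordinates are not used here, and comparisons by gene product, protein or promoter were not made.

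From the counts, log2 CPM with 0.5 added to each count was computed from library totals and the rule applied. In edgeR 4.0.16 (R 4.3.3), all 9 libraries entered 1 quasi-likelihood fit with the default filter on low expression, TMM scaling and Benjamini-Hochberg adjustment at 0.05. The procedures were tested on simulated data. The 3 libraries of a strain may be technical repeats, so p-values measure only the spread between libraries. Named were the 12 members per direction with the highest scores, members over 300 CPM, the 2 nearest the limit on each side, members next to each other, and transcripts outside the limits with at least 1000 CPM or the 3 highest scores. Genes around the leading members, and features outside the limits with neither property, were chosen after their values were seen. The members and lists were chosen with earlier results of these data known. Alternatives were another scaling, pseudocount, limit or expression range, DESeq2 1.42.0, a replicate block, and libraries left out. Replicate numbers were not treated as pairs in the main fit. Deviations of libraries with the same number correlated with r from -0.51 to 0.35, and with different numbers from -0.51 to 0.64. Because deviations within a strain sum to 0, these r cannot decide whether the numbers mark pairs.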

Additional observations from a re-analysis of the deposited data

How the results depend on the processing

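The count of higher transcripts was 53 with TMM factors, 55 with DESeq2 size factors, 17 with a minimum difference of 0.4 and 60 without the 3 libraries that stand apart, against 34. The count of lower transcripts was 54 with a minimum difference of 0.4, against 108, and stayed within 1.5 times under the other settings. Leaving out 1 library gave 27 to 71 higher and 99 to 127 lower transcripts. The 71 came without yl_12 replicate 3, and 30 of the 34 were among them. All 9 such repeats chose 12 of the 34 higher and 58 of the 108 lower transcripts.

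Calls by edgeR were 1920 for yl_12 against yl_10, 1514 for yl_12 against yl_11 and 1235 for yl_11 against yl_10 without the 3 libraries that stand apart, against 910, 433 and 256. Leaving out 1 library gave 613 to 989, 190 to 718 and 63 to 519 calls. For yl_12 against yl_11, leaving out any of the yl_12 or yl_11 libraries moved the count by over 1.5 times, to 193, 190 and 718 without yl_12 replicates 1, 2 and 3, and to 201, 227 and 229 without yl_11 replicates 1, 2 and 3. For yl_11 against yl_10 it came to 166 and 519 without yl_12 replicates 2 and 3, to 97, 63 and 106 without yl_11 replicates 1, 2 and 3, and to 74 and 103 without yl_10 replicates 1 and 2. A replicate block gave 757, 328 and 151 calls for the 3 comparisons. Whether the replicate numbers pair the samples cannot be told from these data. The cause of these moves was not tested.

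For the 55 named members, 654 of 660 recomputed differences moved by less than 1 SD, pooled within the strains, and 6 moved by more. Leaving out 1 library can hardly move a difference past the SD of the same libraries, so nothing is read from these counts. The largest move was 0.18 on the log2 scale. None changed sign, which the rule fixes in advance wherever libraries were only left out, so nothing is read from it. With 3 libraries per strain, differences near 0.3 rest on few values. The pooled SD between libraries had a median of 0.15 for the higher and 0.09 for the lower transcripts, and reached 0.25 and 0.22.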

Other observations

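Of the 67 features with the same pattern outside the limits, 46 were RefSeq transcripts that averaged below 10 CPM, 8 higher and 38 lower in yl_12. The 3 with the highest scores rest on a few counts. YALI1_A15274g had 0, 0 and 0 counts in the yl_12 libraries, against 4, 1 and 1 in the yl_11 libraries and 2, 1 and 1 in the yl_10 libraries. YALI1_F02187g had 2, 1 and 0 counts in yl_12, against 6, 6 and 3 in yl_11 and 5, 3 and 3 in yl_10. YALI1_C14125g had 3, 2 and 0 counts in yl_12, against 5, 8 and 5 in yl_11 and 7, 3 and 4 in yl_10. At these counts no fold is given.

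A further 11 features carry a running number of the authors in place of a RefSeq name, and with library totals all 11 were lower in yl_12. Of all 6366 features, 5959 were RefSeq transcripts, and the 11 are not read as many or few among the rest. Other scalings of the rule were not applied to the 11. Besides Novel00209, Novel00265 and Novel00088, they averaged only 1.40 to 6.57 CPM over the 9 libraries. Novel00209 had 74.2, 73.8 and 66.0 CPM in yl_12, against 94.7, 102 and 109 CPM in yl_11 and 105, 113 and 90.4 CPM in yl_10. The 2 features outside the length limits but inside the level limits were YALI1_B19844g and YALI1_E11351g. YALI1_B19844g had 682 ± 62.3 CPM in yl_12, against 549 ± 28.0 CPM in yl_11 and 544 ± 68.2 CPM in yl_10. YALI1_E11351g had 13.7 ± 1.35 CPM in yl_12, against 17.8 ± 0.898 CPM in yl_11 and 18.8 ± 1.58 CPM in yl_10. These values are means with SD (n = 3 each). Other features with the pattern lay outside the limits on both length and level, among them YALI1_E17258g with a length of 4914 bases.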
